A study of Mus musculus with 24 samples.

Results

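The 41 genes described here encode the proteins that copy DNA in S phase or that open its way, and they were followed through adipocyte differentiation as the DNA replication genes of clonal expansion. They were chosen by name and not by a cut on a measured value, but with earlier results of these data known. Each is represented by the 3′UTR entry of its symbol with the highest mean total count, out of 91830 entries of 26995 genes. All 41 were in the table, and all 41 passed the filter on low counts in the total reads. The cells were 3T3-L1, a mouse embryonic fibroblast line in which a cocktail of dexamethasone, 3-isobutyl-1-methylxanthine and insulin in serum sets off adipogenesis. The 8 groups were cells grown with the solvent DMSO, or with 0.5 μM ML-792, at days −2, 1, 3 and 7 relative to induction, with 3 libraries per group named A, B and C, which makes 24 libraries. ML-792 inhibits the SUMO-activating enzyme SAE1/2 and thereby blocks the conjugation of SUMO to proteins. The day −2 groups were taken before induction, and how long ML-792 had been present at that harvest is not given in the sources used here. All cells, DMSO included, received 100 μM 4-thiouridine for 45 min before harvest. Every library thus held total reads (QuantSeq, from the 3′ end of polyadenylated RNA) and labelled reads (SLAMseq). Labelled reads are those with at least 1 T to C conversion, taken as RNA made during the labelling. The methods call the 3 libraries of a group biological replicates without saying that they came from separate cultures, so that the p-values measure the spread between these libraries.

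When confluent, growth-arrested 3T3-L1 pre-adipocytes receive the cocktail, they re-enter the cell cycle synchronously and divide before they become adipocytes, a stage called clonal expansion. DNA replication starts with licensing, in which the origin recognition complex, Cdc6 and Cdt1 load the ring of Mcm2 to Mcm7 on DNA in G1. Cdc45 and the GINS complex then turn the ring into an active helicase, polymerase α with its primase starts each strand, polymerases δ and ε extend it on the PCNA clamp, and Fen1 and Lig1 join the lagging-strand pieces. Many of these genes are textbook targets of the E2F transcription factors, which are held back by pocket proteins such as Rb1 until G1 cyclins release them.

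The promoters were read first, since E2F sites are short and known. RefSeq start sites in GRCm38.p6, the assembly also called mm10, were taken with 250 bases before and 50 after them, and the motifs TTTCCCGC, TTTGGCGC, TTTCGCGC and TTTGCCGC were searched on both strands. A full window was at hand for 33 of the 41 genes, the exceptions being *Mcm4*, *Gins1*, *Gins2*, *Gins4*, *Prim2*, *Pole*, *Rfc2* and *Ccne2*. At least 1 of the motifs was present in 14 of the 33 (42.4%), in 456 of 9956 genes tested in the total reads (4.58%) and in 704 of 27025 genes of the RefSeq promoter table (2.60%). The 14 were *Orc1*, *Cdc6*, *Cdt1*, *Mcm3*, *Mcm5*, *Mcm6*, *Mcm7*, *Gins3*, *Pola1*, *Pold1*, *Pole2*, *Rfc3*, *Lig1* and *Uhrf1*. A match is a description of the letters and not a mapped binding site. The windows below, 28 bases each and written 5′ to 3′ on the gene's strand with the motif in capitals, are from some of the 14. Of the genes printed, *Mcm6* and *Uhrf1* were not called higher at day 1 than at day −2 in DMSO. Of the genes with a match that are not printed, *Gins3* was called higher there and *Orc1*, *Mcm3*, *Pola1*, *Pold1*, *Pole2* and *Rfc3* were not. *Rrm2* and *Rfc5*, which had the largest and second largest rises there, had no match in their windows. Whether a match goes with the course of a gene was not tested. *Cdc6* lies at chr11:98908003-98908030 on the plus strand with its motif at position -138 from the start site, and *Cdt1* at chr8:122568037-122568064 on the plus strand at position 32. *Mcm5* lies at chr8:75109346-75109373 on the plus strand at position -153, *Mcm6* at chr1:128359735-128359762 on the minus strand at position -47 and *Mcm7* at chr5:138171850-138171877 on the minus strand at position 16. *Lig1* lies at chr7:13278842-13278869 on the plus strand at position 26, and *Uhrf1* at chr17:56304118-56304145 on the plus strand at position -185.
Cdc6: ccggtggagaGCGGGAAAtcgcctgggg
Cdt1: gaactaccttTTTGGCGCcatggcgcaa
Mcm5: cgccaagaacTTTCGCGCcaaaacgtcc
Mcm6: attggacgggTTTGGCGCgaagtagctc
Mcm7: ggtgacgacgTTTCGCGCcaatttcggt
Lig1: gccaaagtgcGCGCGAAAtctgtgtggc
Uhrf1: ccgagtcgggTTTCGCGCgcccaggcgt
In *Cdc6* and *Lig1* the motif stands on the opposite strand, so its reverse complement is in capitals. The *Mcm6* promoter held 3 matches, and those of *Mcm3*, *Mcm5*, *Mcm7* and *Rfc3* held 2 each. In *Mcm5* the printed TTTCGCGC shares bases with a TTTGGCGC on the opposite strand, and in *Mcm6* the other 2 matches overlap in the same way.

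The libraries held 13554718 to 27013352 total reads (median 17428698), of which the 41 genes took 6817 to 43242. Labelled reads were far fewer, 115709 to 820046 per library (median 185851), and only 60 to 614 of them fell on the 41 genes. Counts below are normalized counts, that is, counts divided by the library's effective size and multiplied by the mean effective size. The markers followed the label of the cells, and all 10 adipocyte markers were higher at day 7 than at day −2 in DMSO, whose sum went from 23196 ± 858 to 731395 ± 42591 normalized counts (SD, n = 3), and all 10 fibroblast or pre-adipocyte markers were lower. The leukocyte markers summed to 31.7 to 153 normalized counts per library with *Ptprc* at 0 in all DMSO libraries, the endothelial markers to 0 to 20.6, and the epithelial ones to 0.801 to 490.0, most of it *Krt14*, with *Epcam* at 0 in all DMSO libraries. In bulk libraries such as these, fewer cells that express a gene and less of its RNA per cell cannot be told apart.

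In DMSO, RNA of the replication genes was highest 1 day after induction and lowest in day 7 adipocytes. Summed over the 41 genes, the normalized counts of days −2, 1, 3 and 7 were 16410 ± 969, 29929 ± 2033, 18850 ± 1295 and 10063 ± 894 in that order (SD, n = 3). The day of the highest mean was day 1 in 37 of the 41, whereas it was day 1 in 21.3% of all tested genes. The exceptions were *Gins4*, *Rfc1* and *Ccne1*, highest at day 3, and *E2f1*, highest at day −2. The lowest mean was at day 7 in 35 genes. Between day −2 and day 1, edgeR's quasi-likelihood test called 19 of the 41 higher and 0 lower at an adjusted p under 0.01 (7.61% of all genes were called higher and 9.36% lower), while 29 had an unadjusted p under 0.05. Their median log2 fold change was 0.86, against 0.04 over all genes. In 28 of the 41 all 3 day 1 libraries lay above all 3 of day −2, as they did in 21.8% of all genes. The number called depended on the libraries: it was 1 without the A libraries, 22 without B and 4 without C, and DESeq2 called 22.

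**Figure D1:**
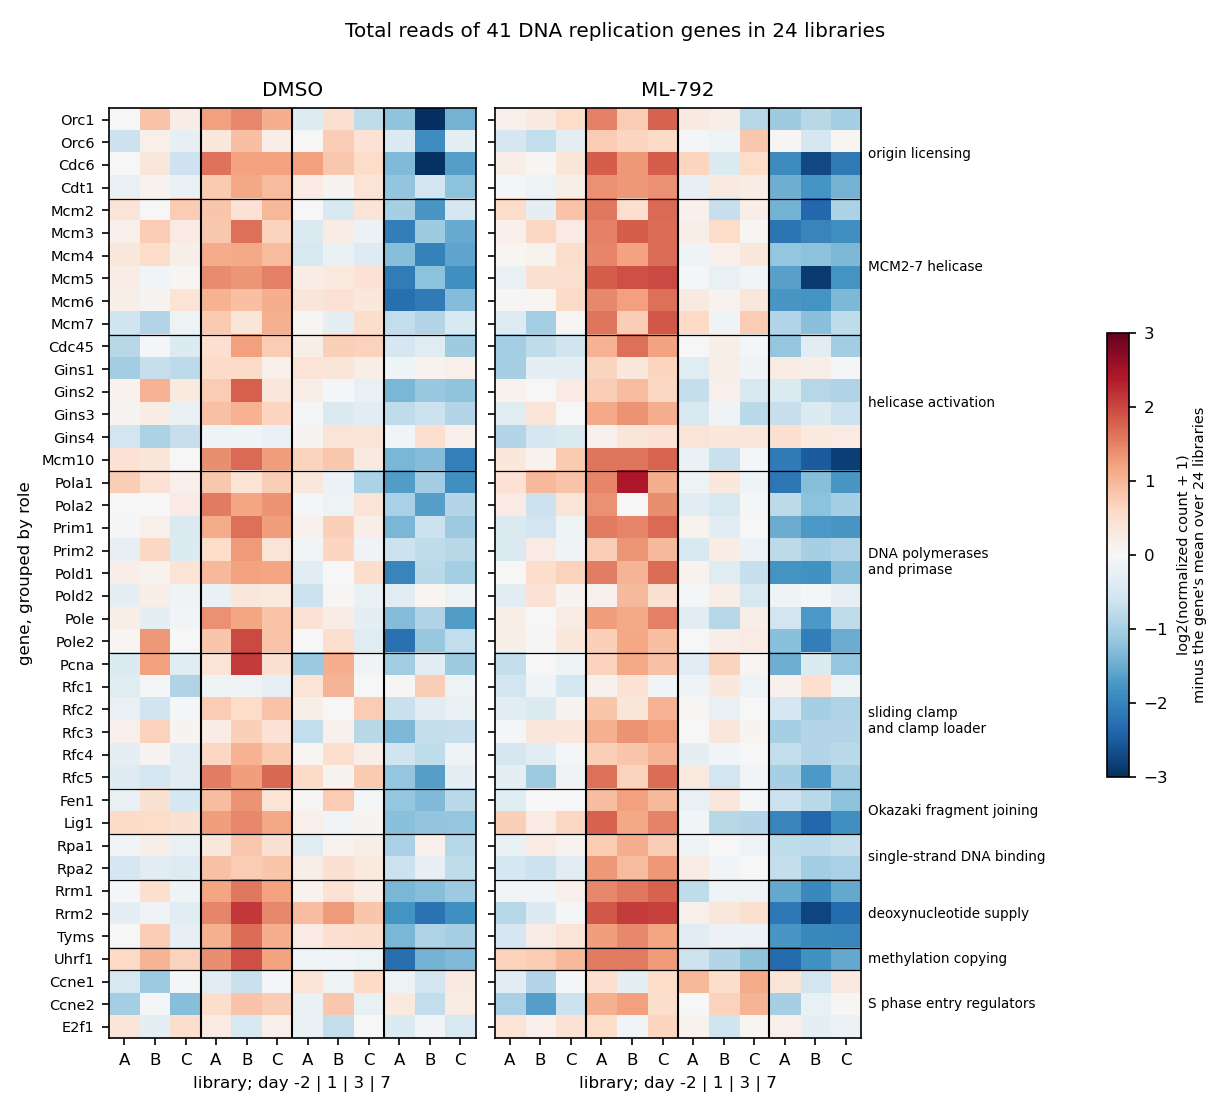
Colour gives log2(normalized count + 1) of total reads minus the gene's mean over 24 libraries, for 41 genes in rows grouped by role and libraries A, B and C of days −2, 1, 3 and 7 in columns, with DMSO on the left and ML-792 on the right. The day 1 columns are red and the day 7 columns blue for most genes in both treatments, with *Gins4*, *Rfc1*, *Pold2*, *Ccne1* and *E2f1* among the exceptions.

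Among the licensing genes, *Cdc6* and *Cdt1* rose at day 1, and *Orc1* and *Orc6* were not called. *Cdc6*, the ATPase that helps to load the MCM ring, had 79.3, 103 and 52.2 at day −2, 251, 186 and 189 at day 1, 192, 141 and 119 at day 3 and 31.5, 9.37 and 25.0 at day 7 normalized counts in libraries A, B and C. Its day 1 libraries all lay above those of day −2, and its day 7 libraries lay below those of every other day. Its log2 fold change (± standard error) for day 1 against day −2 was 1.41 ± 0.35, adjusted p = 0.00863, and for day 7 against day 3 it was -2.78 ± 0.40, adjusted p = 0.000183, a 6.88-fold fall. *Cdt1*, the loading factor that geminin holds in check, rose by 1.07 ± 0.21, adjusted p = 0.00159, and fell between days 3 and 7 (-1.20 ± 0.21, adjusted p = 0.00112). *Orc6*, a subunit of the origin recognition complex, had 324, 556 and 423 at day −2, 630.0, 941 and 578 at day 1, 506, 836 and 685 at day 3 and 371, 138 and 421 at day 7. Its day 1 libraries lay above those of day −2, but with this spread the difference of 0.72 ± 0.34, adjusted p = 0.148, was not called. *Orc1*, the largest subunit of that complex, had the third lowest fold change between days 1 and 3 without being called (-1.41 ± 0.44, adjusted p = 0.0264), and it was lower at day 7 than at day −2 (-2.21 ± 0.49, adjusted p = 0.00172).

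The 6 genes of the MCM ring, whose proteins form one hexamer, moved alike in direction but not in size. *Mcm5* had 615, 491 and 534 at day −2, 1398, 1308 and 1494 at day 1, 608, 638 and 711 at day 3 and 121, 224 and 146 at day 7 normalized counts, with every day 1 library above and every day 7 library below the rest. It rose 2.56-fold at day 1 (1.36 ± 0.20, adjusted p = 0.000173), and fell at both later steps, by -1.10 ± 0.20, adjusted p = 0.000675, and by -1.99 ± 0.21, adjusted p = 1.4e-05. *Mcm7* had 706, 579.7 and 954 at day −2, 1851, 1368 and 2234 at day 1, 1098, 889 and 1530 at day 3 and 642, 579.8 and 780.3 at day 7. All its day 1 libraries exceeded those of day −2 (1.28 ± 0.25, adjusted p = 0.00134), and at day 7 it was back within the range of day −2 (-0.16 ± 0.24, adjusted p = 0.628), the only MCM ring gene not called lower in that comparison. The 3 tested regions of *Mcm7* ranged from -0.81 to -0.16 there, so the entry used here is the least lowered of them.
*Mcm6* had 686, 648 and 815 at day −2, 1261, 1147 and 1290 at day 1, 786, 821 and 765 at day 3 and 127, 141 and 246 at day 7, so that days 1 and 3 separated and day 7 lay below all others. It was not called at day 1 (0.78 ± 0.21, adjusted p = 0.0138), and it had the third lowest fold change between days 3 and 7 (-2.21 ± 0.23, adjusted p = 8.38e-06). *Mcm4* had 928, 1081 and 825 at day −2, 1577, 1623 and 1415 at day 1, 525, 636 and 564 at day 3 and 300.1, 180.1 and 242 at day 7, and its day 3 libraries were already below those of day −2. It fell between days 1 and 3 by -1.42 ± 0.19, adjusted p = 4.32e-05.
*Mcm3* had 465, 702 and 491 at day −2, 727, 1306 and 658 at day 1, 308, 488 and 367 at day 3 and 97.8, 199 and 144 at day 7, with the B library highest on all 4 days, and *Mcm2* had 1217, 948 and 1596 at day −2, 1657, 1271 and 1877 at day 1, 946, 679.9 and 1234 at day 3 and 469, 278 and 664 at day 7, with the B library lowest on all 4 days. Days −2 and 1 overlapped in both, and neither was called at day 1 (0.70 ± 0.30, adjusted p = 0.107 and 0.35 ± 0.29, adjusted p = 0.433). Against day −2, *Mcm3* was lower at day 7 by -1.91 ± 0.31, adjusted p = 0.000125, and *Mcm2* by -1.41 ± 0.30, adjusted p = 0.00124.

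The genes that turn the ring into a moving helicase took different courses. *Mcm10*, which helps to activate it, rose at day 1 (1.19 ± 0.26, adjusted p = 0.00393) and fell between days 3 and 7 (-2.17 ± 0.29, adjusted p = 0.000113), and *Cdc45* rose at day 1 (1.27 ± 0.29, adjusted p = 0.00483). The 4 GINS subunits, which make one complex, did not share a course. *Gins4* had 678, 517 and 619 at day −2, 915, 914 and 859 at day 1, 1055, 1307 and 1295 at day 3 and 937, 1398 and 1101 at day 7 normalized counts. Its libraries stepped up from day −2 to day 1 and again to day 3 with no overlap, and days 3 and 7 overlapped. It was called higher at day 7 than at day −2 (0.92 ± 0.18, adjusted p = 0.000644), as was *Gins1* (0.89 ± 0.24, adjusted p = 0.00749), and these were the 2 genes of the 41 that were higher there (19.3% of all genes were). The 2 tested regions of *Gins1* gave 0.31 and 0.89 there. *Gins2* and *Gins3* were lower in the same comparison (-1.79 ± 0.35, adjusted p = 0.000645, and -0.80 ± 0.21, adjusted p = 0.00535). At day 1, *Gins1* and *Gins3* had risen (1.29 ± 0.24, adjusted p = 0.00108, and 0.82 ± 0.20, adjusted p = 0.00844), whereas *Gins2* and *Gins4* were not called (0.56 ± 0.33, adjusted p = 0.253, and 0.57 ± 0.18, adjusted p = 0.0333). The 2 tested regions of *Gins1* gave 0.46 and 1.29 at day 1 against day −2. The *Gins2* entry overlaps *Gse1* on the other strand, and whether the counting used strand is not given in the sources used here.

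Of the 8 polymerase and primase genes, *Prim1*, the catalytic primase subunit, *Pola2*, the second subunit of polymerase α, and *Pole*, the catalytic subunit of polymerase ε, rose at day 1 and fell at both later steps. *Prim1* had 201, 233 and 155 at day −2, 459, 667 and 504 at day 1, 229, 345 and 241 at day 3 and 80.9, 135 and 97.8 at day 7 normalized counts, and its day 1 libraries lay above all others (1.47 ± 0.26, adjusted p = 0.000606, day 1 against day −2). *Pola2* rose by 1.29 ± 0.23, adjusted p = 0.000759, and *Pole* by 1.20 ± 0.26, adjusted p = 0.00353. *Pold2*, a small subunit of polymerase δ, stood apart from them with 337, 470.5 and 384 at day −2, 361, 522 and 503 at day 1, 262, 423 and 359.9 at day 3 and 333, 434 and 372 at day 7. Its groups overlapped on all days, the fold changes lay between -0.41 and 0.22 over the 4 DMSO comparisons, and it was called in none. Its entry overlaps *Aebp1* on the other strand. *Pola1*, the catalytic subunit of polymerase α, did not differ between days −2 and 1 beyond its spread (0.21 ± 0.31, adjusted p = 0.696), but its entry is that of a noncoding transcript, and the 14 tested regions of the gene ranged from 0.03 to 1.85 in that comparison. *Pold1*, *Pole2* and *Prim2* were not called at day 1 (adjusted p = 0.0429, 0.255 and 0.101 from edgeR).

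*Pcna*, the clamp itself, varied widely between the libraries of a day, although within each letter day 1 lay above day −2. It had 195, 618 and 202 at day −2, 346, 1122 and 361 at day 1, 119, 554 and 241 at day 3 and 127, 205 and 124 at day 7 normalized counts, and library B held the highest value on each day, also under ML-792. The log2 fold change at day 1 was 0.85 ± 0.57, adjusted p = 0.322, and without the B libraries it was 0.83 with an adjusted p of 0.0311, still not under 0.01. The clamp loader subunits *Rfc2*, *Rfc4* and *Rfc5* rose at day 1, while *Rfc1*, the large subunit, and *Rfc3* were not called. *Rfc5* had 318, 287 and 335 at day −2, 1206, 989.9 and 1390 at day 1, 621, 445 and 726 at day 3 and 188, 131 and 347 at day 7, with day 1 above all other days, and its rise of 1.93 ± 0.29, adjusted p = 0.000181, was the second largest. *Rfc2* had 582, 447 and 650.2 at day −2, 1149, 996 and 1227 at day 1, 769.7, 669 and 1145 at day 3 and 427, 531 and 576 at day 7 (1.01 ± 0.22, adjusted p = 0.00331), with days 1 and −2 separate and days 1 and 3 overlapping. *Rfc1* ran the other way, with 531, 658 and 361 at day −2, 609, 635 and 571 at day 1, 895, 1390 and 669.9 at day 3 and 699, 1141 and 613 at day 7. Its day 3 libraries lay above all day 1 libraries, but the difference was not called (0.70 ± 0.29, adjusted p = 0.0819). *Rfc3* was lower at day 7 than at day −2 (-1.23 ± 0.30, adjusted p = 0.00336), the only gene of the clamp and its loader to be so. The *Rfc4* entry overlaps *Eif4a2* on the other strand.

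*Lig1*, the ligase that seals Okazaki fragments, gave the tightest course. It had 1026, 1011 and 945 at day −2, 1628, 1856 and 1542 at day 1, 766, 646 and 727 at day 3 and 287, 304 and 305 at day 7 normalized counts, and no 2 days overlapped. Its rise at day 1 was 0.75 ± 0.15, adjusted p = 0.00171, its fall to day 3 was -1.23 ± 0.15, adjusted p = 1.54e-05, and that to day 7 was -1.26 ± 0.15, adjusted p = 4.71e-05. *Fen1*, the nuclease that trims these fragments, was called only at the last step (-1.39 ± 0.31, adjusted p = 0.00593). *Rpa2*, a subunit of the protein that coats single-stranded DNA, rose at day 1 (1.23 ± 0.17, adjusted p = 7.97e-05) and fell between days 3 and 7 (-0.85 ± 0.17, adjusted p = 0.00259). Its partner *Rpa1* had 936, 1119 and 845 at day −2, 1258, 1732 and 1366 at day 1, 763, 1060 and 1116 at day 3 and 506, 1090 and 543 at day 7, with day 1 above all other days. It was called in no DMSO comparison (0.59 ± 0.26, adjusted p = 0.129, at day 1).

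All 3 genes of deoxynucleotide supply rose at day 1 and were lower at day 7 than at day −2. *Rrm2*, the small subunit of ribonucleotide reductase that cells make in S phase, had 245, 277 and 233 at day −2, 821, 1295 and 805 at day 1, 563, 719.8 and 528 at day 3 and 84.3, 62.5 and 81.9 at day 7 normalized counts. No 2 of the days 1, 3 and 7 overlapped, and all 3 day 7 libraries were below those of day −2. It had both the largest rise of the 41 at day 1, 3.87-fold (1.95 ± 0.22, adjusted p = 1.32e-05), and the largest fall between days 3 and 7, 7.92-fold (-2.99 ± 0.24, adjusted p = 9.81e-07). *Rrm1*, the large subunit, had 783, 1113 and 736 at day −2, 1837, 2389 and 1848 at day 1, 859, 1082 and 919 at day 3 and 310.2, 328 and 376 at day 7, with day 1 above and day 7 below the others. It rose by 1.21 ± 0.19, adjusted p = 0.00029, and fell by -1.09 ± 0.19, adjusted p = 0.000479, between days 1 and 3. *Tyms*, which makes thymidylate, rose by 1.09 ± 0.26, adjusted p = 0.00618. Its entry is that of a noncoding transcript, and the 9 tested regions of the gene ranged from -0.86 to 1.68 at day 1, so that a course for the *Tyms* mRNA is not settled by it.

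*Uhrf1*, which brings the maintenance DNA methyltransferase to newly copied DNA, had 234, 316 and 247 at day −2, 410.0, 599.7 and 362 at day 1, 146, 147 and 139.8 at day 3 and 31.5, 57.2 and 61.4 at day 7 normalized counts. Day 1 lay above and days 3 and 7 below day −2. The rise was not called (0.78 ± 0.26, adjusted p = 0.0383), whereas the fall from day 1 to day 3 was the largest of the 41 (-1.66 ± 0.27, adjusted p = 0.000189) and so was the difference between days 7 and −2 (-2.40 ± 0.28, adjusted p = 4.48e-06). The regulators of S phase entry gave no call in any DMSO comparison. *Ccne1*, cyclin E1, had 406, 268 and 554 at day −2, 455, 354 and 549 at day 1, 756, 523 and 855 at day 3 and 508, 385 and 682 at day 7, with overlap between all adjacent days and B lowest on each. *Ccne2*, cyclin E2, had 38.4, 76.6 and 32.2 at day −2, 114, 144 and 132 at day 1, 68.4, 140.0 and 68.1 at day 3 and 97.8, 46.8 and 93.3 at day 7. Its day 1 libraries were all above those of day −2, and the fold change of 1.41 ± 0.40, adjusted p = 0.0184, was as large as that of *Cdc6* without passing the threshold. *E2f1*, itself an E2F factor, had 646, 407 and 728 at day −2, 595, 359.6 and 556 at day 1, 433, 307 and 494 at day 3 and 374, 475 and 357 at day 7, with overlap between days −2 and 1 and the lowest fold change of the 41 at day 1 (-0.24 ± 0.26, adjusted p = 0.56). The *E2f1* entry overlaps *Necab3* on the same strand and that of *Ccne2* overlaps *Ints8* on the other, so their reads may be shared.

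Between days 1 and 3, 10 of the 41 genes fell and 0 rose (11.6% of all genes were called lower and 11.6% higher), with a median log2 fold change of -0.75 against 0.00 over all genes. The 10 were *Mcm3*, *Mcm4*, *Mcm5*, *Gins3*, *Pola2*, *Pole*, *Prim1*, *Lig1*, *Rrm1* and *Uhrf1*. The highest fold changes belonged to *Rfc1*, *Ccne1* and *Gins4* (0.70, adjusted p = 0.0819, 0.65, adjusted p = 0.102, and 0.44, adjusted p = 0.0795). The call count was 3 without A, 13 without B and 4 without C, and DESeq2 called 18. Between days 3 and 7, 18 fell and 0 rose (4.76% of all genes were called lower and 6.03% higher), with a median of -1.23 against -0.02. They were *Cdc6*, *Cdt1*, *Mcm3* to *Mcm6*, *Mcm10*, *Pola2*, *Pole*, *Prim1*, *Rfc5*, *Fen1*, *Lig1*, *Rpa2*, *Rrm1*, *Rrm2*, *Tyms* and *Uhrf1*. In 32 of the 41 all day 7 libraries lay below all day 3 libraries (18% of all genes). Here the count was 3 without A, 24 without B and 8 without C. The comparisons of day 1 with day −2 and of day 7 with day 3 have no library in common, and 13 genes were called in both, which is 13 of the 19 that rose and 13 of the 18 that fell (1.88% of all genes were called higher in the first and lower in the second). Over the whole course, day 7 against day −2, 22 were lower (19.1% of all genes) and 2 higher, with a median of -1.15 against 0.00. These 22 held 5 of the 6 MCM ring genes, 5 of 8 polymerase genes and 3 of 3 deoxynucleotide genes, but 1 of 6 clamp and loader genes and 0 of 3 S phase entry regulators. Without A 9 were lower, without B 23 and without C 16.

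**Figure D2:**
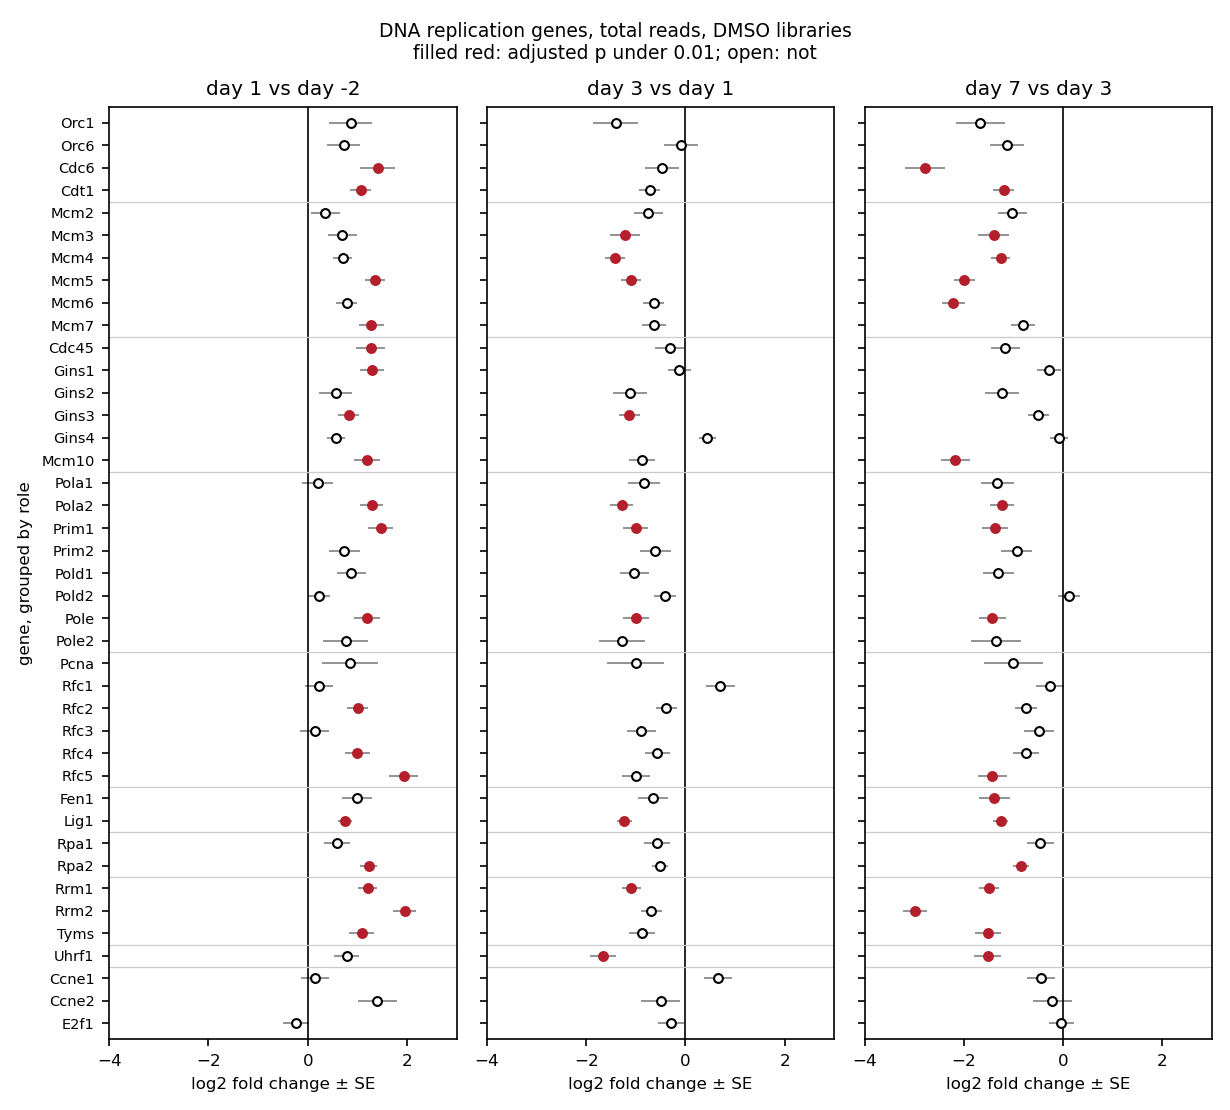
Points give the log2 fold change of total reads in DMSO with its standard error (edgeR, 3 libraries per day) for 41 genes in rows, in a panel each for day 1 against −2, day 3 against 1 and day 7 against 3, with filled points at an adjusted p under 0.01. The points lie right of 0 for 40 of the 41 genes in the first panel, and left of 0 for 38 and 40 in the others.

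**Figure D3:**
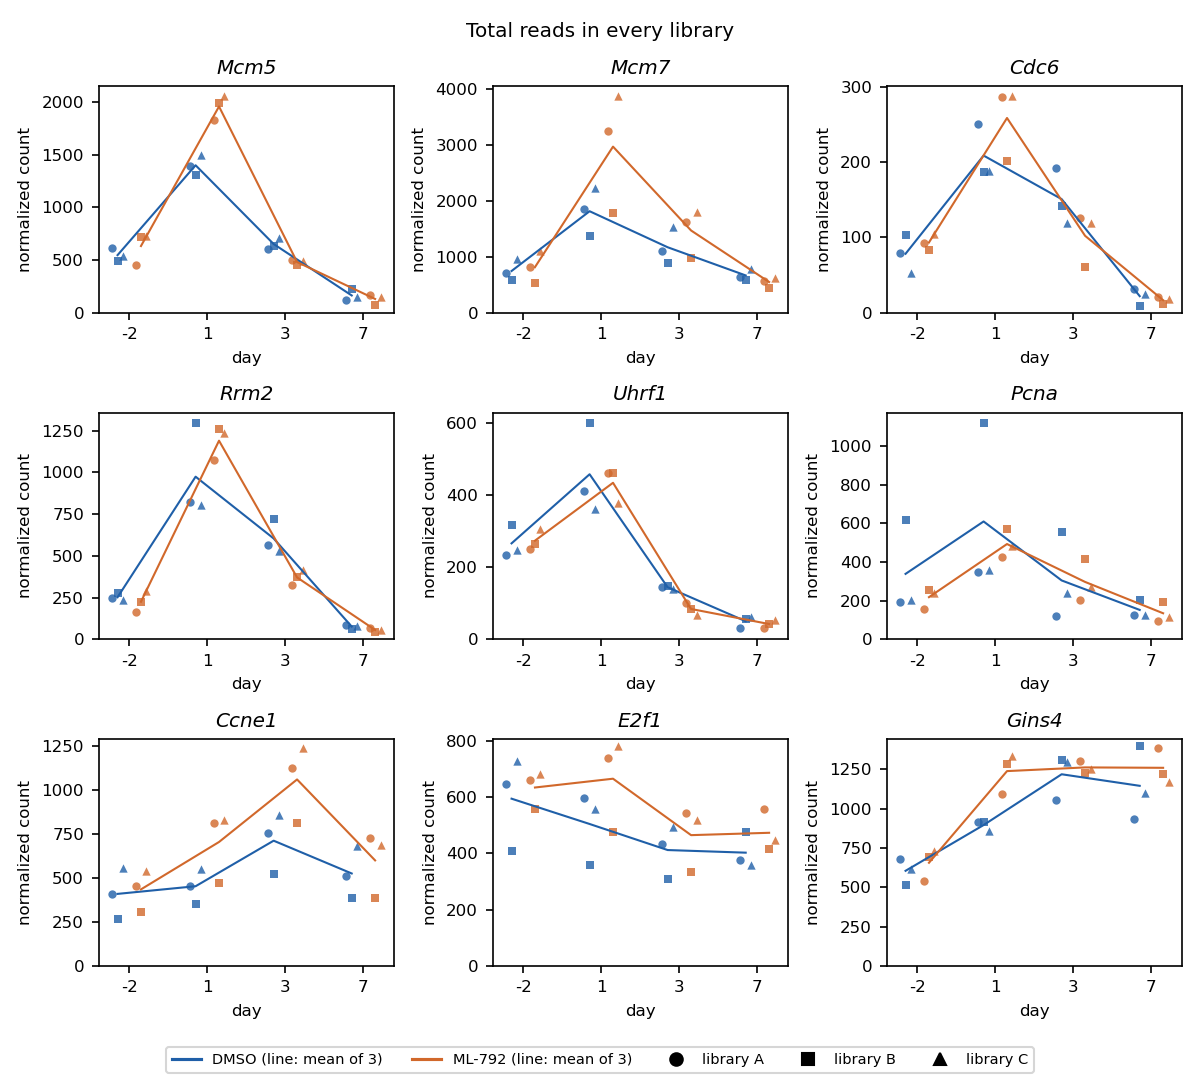
Normalized counts of total reads for 9 genes on the y axis against the day, with a point per library (circle A, square B, triangle C) and lines through the means of 3 in DMSO (blue) and ML-792 (orange). *Mcm5*, *Cdc6*, *Rrm2* and *Uhrf1* peak at day 1 and are lowest at day 7, *Ccne1* and *Gins4* do not, and the B libraries of *Pcna* stand above A and C.

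The letters carried differences of their own. The B library was the lowest of 3 in all 8 groups for *Ccne1*, *Mcm2*, *Mcm7*, *Pola2* and *Rfc5* (8.19% of all genes were so), and the highest in all 8 for *Pcna*, *Pold2* and *Rfc1* (4.42%). The C library was the highest in all 8 for *Mcm2* and *Mcm7* (0.960%), and the A library was never at the same end in all 8 for any of the 41. What the letters share is not given in the sources used here.

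Under ML-792 the sum over the 41 genes was again highest at day 1 and lowest at day 7. The summed normalized counts of days −2, 1, 3 and 7 were 16326 ± 2051, 37402 ± 3348, 17209 ± 941 and 9401 ± 705 in that order (SD, n = 3), and the day of the highest mean was day 1 in 38 of the 41 (21.6% of all genes). *Gins4* and *Ccne1* were highest at day 3 in both treatments, *Rfc1* at day 7 in place of day 3, and *E2f1* at day 1 in place of day −2. At day 1 against day −2, 29 were called higher and 0 lower at an adjusted p under 0.01 (11.7% and 13% of all genes). The median log2 fold change was 1.15, with *Rrm2* again at the top (2.40 ± 0.22, adjusted p = 1.08e-08 from edgeR). Between days 1 and 3, 30 fell and 0 rose (12.4% and 12.9% of all genes), with a median of -1.26, and between days 3 and 7, 19 fell and 0 rose (6.17% and 7.89%), with a median of -0.995. At day 7 against day −2, 21 were lower (19.8%) and 1, *Gins4*, was higher (0.94 ± 0.16, adjusted p = 3.13e-05, 21% of all genes). Without A the counts of the first 3 steps were 9, 15 and 11, without B 34, 32 and 22, and without C 18, 15 and 12. The ML-792 counts come from a fit of all 24 libraries, whereas those given above for DMSO come from a fit of its own libraries. In the fit of all 24, DMSO gave 24 higher at day 1 against day −2, 17 lower at day 3 against day 1 and 22 lower at day 7 against day 3.

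Before induction, at day −2, ML-792 and DMSO could not be told apart in these genes. 0 of the 41 were called at an adjusted p under 0.1, with 0 at an unadjusted p under 0.05 and 0 called by DESeq2 (0 of all genes were called by edgeR), and the log2 fold changes had a median of -0.00.

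At day 1 few of the 41 genes differed between ML-792 and DMSO beyond the spread between libraries. Fold changes were above 0 in 34 of 41, with a median of 0.29 against -0.01 over all genes. 2 genes were called higher, *Pola1* and *Rfc3*, and 0 lower (3.82% and 4.05% of all genes), so the share called was near the background. *Rfc3*, of the clamp loader, had 229, 324 and 264 normalized counts in DMSO and 412, 499 and 463 in ML-792, with no overlap (0.75 ± 0.24, adjusted p = 0.0788). *Pola1* had 221, 165 and 210.5 in DMSO and 349, 677 and 266 in ML-792 (1.11 ± 0.33, adjusted p = 0.0483). The B library of ML-792 was far above the others, and without the B libraries the difference was 0.51 with an adjusted p of 0.463. The *Pola1* entry is that of a noncoding transcript, and the 14 tested regions of the gene ranged from 0.30 to 1.77 in this comparison.
All 6 genes of the MCM ring had values above 0 here, between 0.40 and 0.71, and none was called. *Mcm5* had 1398, 1308 and 1494 in DMSO and 1830, 1991 and 2054 in ML-792, and *Mcm6* had 1261, 1147 and 1290 and 1659, 1422 and 1932. In both the ML-792 libraries lay above all DMSO libraries, yet the adjusted p was 0.317 and 0.286 (edgeR). *Mcm4* had 1577, 1623 and 1415 in DMSO and 2026, 1694 and 2357 in ML-792, likewise separate (0.40 ± 0.18, adjusted p = 0.285). *Mcm7* had 1851, 1368 and 2234 in DMSO and 3258, 1779 and 3889 in ML-792, which overlapped, with B the lowest library of both groups. Its difference of 0.71 ± 0.30, adjusted p = 0.235, became 0.81 with an adjusted p of 0.00916 without B. *Mcm2* and *Mcm3* overlapped as well (0.59 ± 0.38, adjusted p = 0.551, and 0.57 ± 0.25, adjusted p = 0.277). The lowest fold changes were those of *Pole2*, *Gins2* and *Pola2* (-0.40, adjusted p = 0.74, -0.33, adjusted p = 0.709, and -0.32, adjusted p = 0.719). Over all 41, 11 had an unadjusted p under 0.05, 10 had all ML-792 libraries above all DMSO libraries (10.2% of all genes), DESeq2 called 3, and the count was 0 without A, 8 without B and 0 without C.

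At day 3, 6 of the 41 genes were called lower with ML-792 and 0 higher (7.5% and 8.04% of all genes), with 12 fold changes above 0 and a median of -0.27 against -0.01 over all genes. All 3 genes of deoxynucleotide supply were among the 6. *Rrm2* had 563, 719.8 and 528 normalized counts in DMSO and 326, 372 and 413 in ML-792, with no overlap (-0.71 ± 0.21, adjusted p = 0.0356). *Rrm1* had 859, 1082 and 919 in DMSO and 475, 720.3 and 726 in ML-792, also separate (-0.57 ± 0.19, adjusted p = 0.0529), and *Tyms* had 333, 393 and 399 and 225, 245 and 244 (-0.65 ± 0.24, adjusted p = 0.0948). The 9 tested regions of *Tyms* lay between -0.69 and -0.39 here. The others were *Mcm10*, *Uhrf1* and *Lig1*. *Mcm10* had 133, 146 and 101 in DMSO and 72.9, 52.0 and 81.9 in ML-792 (-0.88 ± 0.26, adjusted p = 0.0305), and *Uhrf1* had 146, 147 and 139.8 and 101, 83.7 and 67.0 (-0.78 ± 0.25, adjusted p = 0.0494). For *Lig1* the values were 766, 646 and 727 in DMSO and 644, 388 and 372 in ML-792, and the closest libraries, B of DMSO and A of ML-792, nearly touched (-0.61 ± 0.19, adjusted p = 0.0495). The highest fold changes were those of *Ccne1*, *Rfc3* and *Mcm4* (0.57, adjusted p = 0.303, 0.56, adjusted p = 0.18, and 0.48, adjusted p = 0.105), and that of *Rfc3* was called without B (0.84, adjusted p = 0.0182 from edgeR). *Ccne1* had 756, 523 and 855 in DMSO and 1126, 813 and 1240 in ML-792, and the groups overlapped. In total 9 genes had all ML-792 libraries below all DMSO libraries (12.6% of all genes), and the count of calls was 1 without A, 6 without B and 1 without C.

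At day 7, 4 of the 41 genes were called lower with ML-792 and 0 higher (5.43% and 6.32% of all genes), and the median was -0.25 against 0.01. *Lig1* had 287, 304 and 305 normalized counts in DMSO and 172, 134 and 191 in ML-792, a 1.80-fold difference with no overlap (-0.85 ± 0.20, adjusted p = 0.00931). *Cdt1* had 179.8, 279 and 173 in DMSO and 146, 119 and 152 in ML-792 (-0.60 ± 0.20, adjusted p = 0.0687). *Tyms* had 108, 147 and 139.9 and 82.3, 72.3 and 70.6 (-0.81 ± 0.26, adjusted p = 0.0628), but the 9 tested regions of the gene ranged from -1.59 to 0.84, so that the direction depends on the region. *Mcm10*, which had few reads at this day, had 31.5, 33.3 and 19.3 and 18.4, 14.0 and 10.9 (-0.95 ± 0.32, adjusted p = 0.0805). In none of the 4 did the groups overlap, and 6 of the 41 were separate in this direction (13% of all genes). The highest fold changes were those of *Orc1*, *Orc6* and *Gins2* (0.80, adjusted p = 0.416, 0.58, adjusted p = 0.364, and 0.52, adjusted p = 0.435). The count was 1 without A, 1 without B and 0 without C.

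The difference of the differences was tested as the interaction of day and ML-792. Over its 3 terms together 3 of the 41 genes were called, *Lig1*, *Mcm10* and *Cdt1* (11.9% of all genes), and at the step from day 1 to 3 alone *Rrm2* was lower and 0 were higher (2.19% and 2.41%). For day 1 against day −2, 0 were called (1.34% of all genes higher, 0.983% lower), and for day 7 against day 3 also 0 (2.16% higher, 2.23% lower), with 3 and 1 at an unadjusted p under 0.05 and 0 by DESeq2 in both. In this fit, which has no term for the letters, the share called was below or near that of all genes in each.

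**Figure D4:**
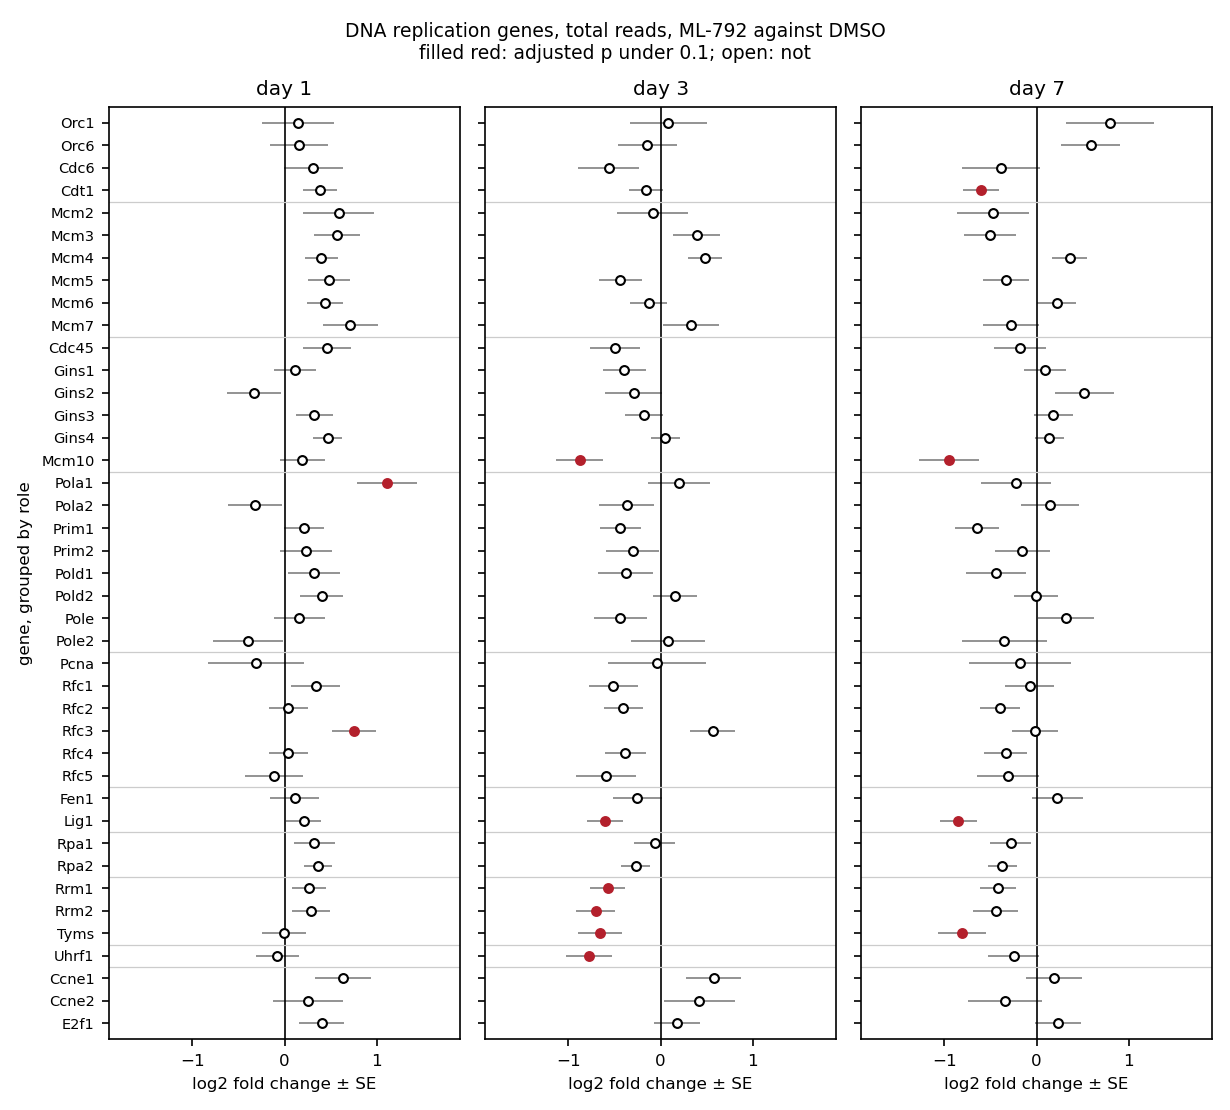
Points give the log2 fold change of total reads, ML-792 over DMSO, with its standard error (edgeR, 3 libraries per group) for 41 genes in rows, in a panel each for days 1, 3 and 7, with filled points at an adjusted p under 0.1. At day 1, 34 of the 41 points lie above 0 and 2 are filled, at day 3 6 are filled below 0, and at day 7 4 are filled below 0.

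Labelled reads, which are meant to report RNA made in the last 45 min, were too few to test in 19 of the 41 genes. The other 22 passed the filter on low counts, and the text below is about those 22. From day −2 to day 1 in DMSO, 0 were called (0.591% of all genes were called higher and 17.9% lower), 5 had an unadjusted p under 0.05, and DESeq2 called 0. The median log2 fold change was -0.08, against -1.16 over all genes. The highest were *Pola2*, *Mcm6* and *Prim2* (1.56 ± 0.60, adjusted p = 0.0402; 1.20 ± 0.49, adjusted p = 0.053; 1.07 ± 0.44, adjusted p = 0.0565), and the lowest *Orc6*, *Mcm4* and *Rfc1* (-1.65, adjusted p = 0.089, -1.56, adjusted p = 0.047, and -1.42, adjusted p = 0.186). When the labelled reads were scaled to the labelled total of each library, the median became 0.97 and 3 were called higher, so the direction depends on the scaling. *Mcm6* had 31, 30 and 34 labelled reads at day −2, 71, 38 and 101 at day 1, 51, 22 and 25 at day 3 and 3, 2 and 10 at day 7. Its day 7 libraries were below all others, and it was the 1 gene called at day 7 against day 3 (-2.73 ± 0.59, adjusted p = 0.00887, 0.0777% of all genes lower) and at day 7 against day −2 (-2.26 ± 0.59, adjusted p = 0.00175, 27.4% of all genes lower). Between days 1 and 3, 0 were called (1.97% of all genes lower, 1.55% higher), 6 had an unadjusted p under 0.05, and DESeq2 called 1, with a median of -0.59 against -0.33.

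ML-792 against DMSO in labelled reads gave 1 call among the 22. At day 3 *Fen1* had 11, 3 and 6 labelled reads in DMSO and 0 in each ML-792 library (adjusted p = 0.0548 from edgeR, with 0.73% of all genes lower and 0.42% higher), which is at least 6.35-fold lower against a floor of 3 reads over the group. Its total reads did not differ beyond their spread (-0.25 ± 0.27, adjusted p = 0.698), and the labelled call was lost without any 1 of the letters. At days −2, 1 and 7, 0 were called, with 0, 1 and 4 at an unadjusted p under 0.05 and 0 called by DESeq2. Of all genes 0 were called at day −2, 0.14% higher and 0.839% lower at day 1, and 0.0777% higher and 0.87% lower at day 7. At day 7 the median was -1.21 against -0.36 over all genes. The interaction of day and ML-792 gave 0 calls in labelled reads (0.28% of all genes), with 2 at an unadjusted p under 0.05 and 1 by DESeq2.

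The labelled share, labelled reads as a percentage of total reads, was 2.63 ± 0.193%, 1.52 ± 0.21%, 1.30 ± 0.104% and 1.54 ± 0.17% for the 41 genes together on days −2, 1, 3 and 7 in DMSO (SD, n = 3). Over all genes it was 3.19 ± 0.471%, 1.28 ± 0.0744%, 1.02 ± 0.112% and 1.01 ± 0.0914% on these days. The mean of the replication genes was thus below that of all genes at day −2 and above it at days 1, 3 and 7. Under ML-792 their share was 2.23 ± 0.0763%, 1.19 ± 0.197%, 1.18 ± 0.165% and 0.914 ± 0.0662%. *Prim2*, the large primase subunit, had the highest share of the 41, between 4.65% and 25.3% over the libraries. At day 1 in DMSO it held 263 labelled of 1283 total reads over the 3 libraries. The 41 genes together held 421, 511 and 605 labelled reads in A, B and C there. The day 1 mean of the 41 thus leans on *Prim2*, and the share without it was not computed. These shares were not tested.

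**Figure D5:**
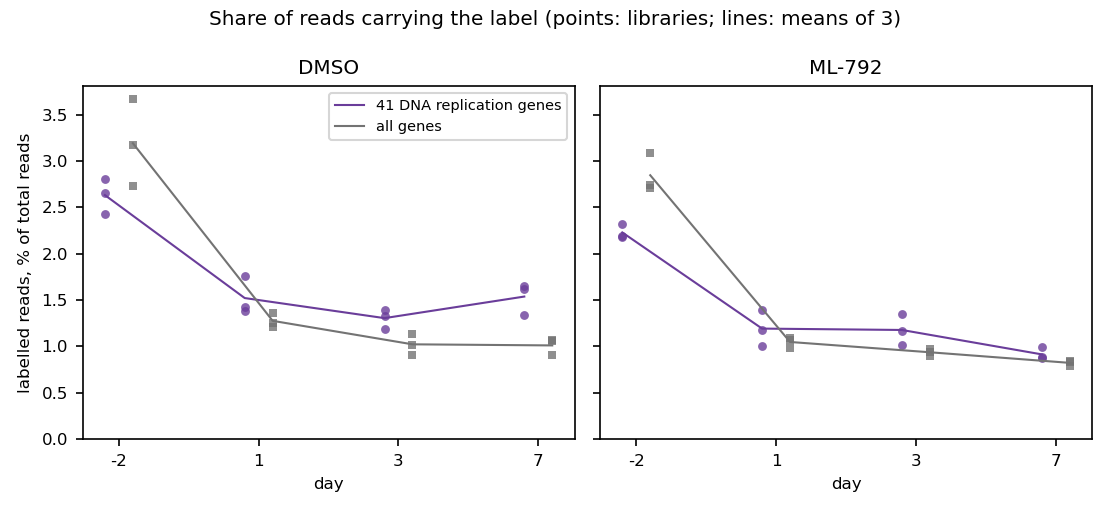
Labelled reads as a percentage of total reads on the y axis against the day, for the 41 genes (purple) and all genes (grey), with a point per library and lines through the means of 3, DMSO on the left and ML-792 on the right. In DMSO the 41 genes go from 2.63% at day −2 to 1.54% at day 7, and all genes from 3.19% to 1.01%.

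Other genes of the cycle give the setting. Of 40 further replication genes, among them helicases, checkpoint and chromatin assembly factors, 15 were higher and 1 lower at day 1 than at day −2 in DMSO, from *Dna2* at 2.19 (adjusted p = 0.00655, edgeR) to *Rnaseh2b* at -2.05 (adjusted p = 0.00401, edgeR) on the log2 scale, and 13 were lower at day 7 than at day 3. Of 12 genes of the E2F factors and pocket proteins, 0 were called at day 1 by edgeR, with 3 at an unadjusted p under 0.05, and 3 fell between days 3 and 7, the lowest being *E2f8* at -2.81 (adjusted p = 0.00585, edgeR). Of 25 mitosis genes 19 were higher at day 1, led by *Top2a* at 2.71 (adjusted p = 1.92e-07, edgeR), 23 fell by day 3, and 21 between days 3 and 7. At day 3, 16 of these 25 were lower with ML-792, with a median of -0.97, and at day 1 edgeR called 0 of the 25 (4 at an unadjusted p under 0.05). The mitosis genes summed to 13386 ± 1649 normalized counts at day 3 in DMSO and 6866 ± 1502 in ML-792 (SD, n = 3), and their part in the day 3 differences of the replication genes was not tested.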

How the data were processed

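Total and labelled reads of 24 libraries were analysed. The authors deposited raw counts per RefSeq 3′UTR entry for all reads and for reads with at least 1 T to C conversion, mapped with SlamDunk to mm10 and not normalized; bcl2fastq 2.17.1.14 is named in the submitters' processing notes. Libraries were grouped by their titles, with the letters A, B and C as replicates, and 6 columns per table that match no sample were not used. The members and gene lists were chosen with earlier results of these data known. Counts were tested with edgeR 4.0.16 (R 4.3.3, limma 3.58.1), two-sided, by the quasi-likelihood test with TMM factors of the total counts, also for labelled counts. filterByExpr (count 10 and total 15 as minimum) left 26563 entries (total) and 10589 (labelled), and p-values were adjusted over all of them by Benjamini-Hochberg. The 12 DMSO libraries were fitted for the DMSO days, and all 24 for ML-792, its time course and the interaction. Day comparisons in either treatment were called at an adjusted p under 0.01. ML-792 against DMSO and the interaction were called at an adjusted p under 0.1. Background percentages count 1 entry per gene, 13329 genes in the DMSO fit, 13331 in the other and 6434 in labelled reads. Entries of one gene can share reads. Alternatives were DESeq2 1.42.0, no filter, a single entry for each gene, a block for the letters, labelled scaling, all 24 libraries together, genes with a labelled share of 30% or less, and each letter left out. All members were named by role, those of the MCM ring, *Pcna*, *Cdc6*, *Ccne1*, *Ccne2*, *E2f1*, *Rrm2*, *Uhrf1* and the most counted member of each role in every library, with the 3 highest and 3 lowest fold changes per comparison and all calls where at most 5. Promoters were searched and figures drawn in Python 3.11.15 (pandas 2.3.3, matplotlib 3.10.9). The tests were checked on simulated counts.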

Additional observations from a re-analysis of the deposited data

Results flagged for a closer look

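In the fit with no term for the letters, few of the 41 genes changed differently between days under ML-792 and DMSO by edgeR's test of the difference itself, at an adjusted p under 0.1. The share of them called there was below or near that of all genes. *Rrm2* changed by -0.69 on the log2 scale from day 1 to day 3 in DMSO and by -1.68 in ML-792, and the difference was -0.99 ± 0.30, adjusted p = 0.0842, the 1 gene of the 41 called lower in that comparison (2.19% of all genes). Over the 3 terms of day and treatment together, 3 of the 41 were called (11.9% of all genes): *Lig1* (adjusted p = 0.0375), *Mcm10* (adjusted p = 0.0658) and *Cdt1* (adjusted p = 0.0991). *Lig1* stood at 1628, 1856 and 1542 normalized counts at day 1 in DMSO and 2338, 1532 and 1927 in ML-792, which overlapped, and was lower with ML-792 at days 3 and 7. *Mcm10* likewise had 221, 272 and 200.4 in DMSO and 254, 255 and 282 in ML-792 at day 1, overlapping, and lower values at days 3 and 7. *Cdt1* had 703, 905 and 787 at day 1 in DMSO and 1056, 1008 and 1061 in ML-792, all higher, and lower values at day 7. The *Rrm2* call and the 3 others were lost without A and without C, when 0 were called. Without B, *Rrm2* was 1 of 5 called at its step, and over the 3 terms 7 were called, among them 2 of the 3 (*Lig1* and *Cdt1*). Without the filter on low counts 0 were called at the step of *Rrm2*, and over the 3 terms 1 of the 3, *Lig1*, was called beside *Mcm2* and *Mcm3*. With a block for the letters 15 were called over the 3 terms, and the share of all genes in that fit is not given here.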

How the results depend on the processing

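No call on a single gene changed direction. Of 187 calls on the 41 genes over all comparisons, DESeq2 kept 187, one entry per gene 183, no filter on low counts 174, and fits without B 172, but fits without C kept 94 and without A 70. Most calls were thus lost without A, and many without C, and 19 of the 41 genes had too few labelled reads to be tested. With each letter left out in turn, the lowest and highest counts in DMSO total reads were 1 and 22 higher at day 1 against −2, 3 and 13 lower at day 3 against 1, 3 and 24 lower at day 7 against 3, and 9 and 23 lower at day 7 against −2. In ML-792 they were 9 and 34, 15 and 32, and 11 and 22 for the first 3 steps. ML-792 against DMSO gave 0 to 8 higher at day 1, 1 to 6 lower at day 3 and 0 to 1 lower at day 7. The interaction gave 0 to 7 over all terms, 0 to 1 at day 1 against −2, 0 to 5 at day 3 against 1 and 0 to 1 at day 7 against 3. In labelled reads of DMSO 0 to 1 were lower at day 7 against 3 and 0 to 3 at day 7 against −2, and 0 were lower with ML-792 at day 3.

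The same fits moved medians of the log2 fold change to 0.83 to 0.88 at day 1 against −2 and -1.18 to -1.005 at day 7 against 3 in DMSO, and to -1.25 to -1.15 and -1.12 to -1.02 at day 3 against 1 and day 7 against 3 in ML-792. In labelled reads of DMSO they were -0.53 to -0.062 at day 1 against −2, -0.98 to -0.75 at day 3 against 1, -0.85 to -0.13 at day 7 against 3 and -1.75 to -1.43 at day 7 against −2. For ML-792 against DMSO they were -0.16 to 0.42 at day 1 and -0.85 to 0.024 at day 3.

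DESeq2 called 18 lower at day 3 against 1 in DMSO and 4 lower for the interaction at that step. In labelled reads it called 1 at day 3 against 1, 3 at day 7 against −2, 2 with ML-792 at day 3 and 1 for the interaction. Without the filter 17 were lower at day 3 against 1, 3 with ML-792 at day 3, 2 at day 7, and 0 for the interaction at day 3 against 1, and labelled medians were -1.08 at day 3 against 1, -0.25 at day 7 against 3, -1.40 at day 7 against −2 and -0.72 with ML-792 at day 7. With one entry per gene the day 1 median was 0.80, 5 were lower for the interaction at day 3 against 1, and 3 in labelled reads at day 7 against −2. All 24 libraries together gave 17 lower at day 3 against 1, and 2 in labelled reads at day 7 against −2. Labelled counts scaled by labelled reads gave 3 calls at day 1 against −2 and 0 at day 7 against −2, with medians of 0.97, -0.37 and, for ML-792 at day −2, -0.16. Leaving out genes with a labelled share above 30% changed nothing, since all 41 were at or below it. The cause was not tested for any of these.

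The letters A, B and C were also fitted as a replicate block. Of 84 pairs of libraries with the same letter, 64 had a correlation of their deviations above 0.1 (lowest -0.118, mean 0.178). Of 168 pairs with different letters, 15 did (mean -0.088). Moreover, 22 of 24 libraries correlated best with their own letter. Libraries of one letter thus shared differences, but the design does not say what the letters mark, and the main fits have no term for them. The block kept 186 of the 187 calls and raised the counts to 23 lower at day 3 against 1, 8 higher and 9 lower with ML-792 at days 1 and 7, and 15, 3, 10 and 2 for the interaction over all terms and its 3 steps. The shares of all genes called with the block are not given here, so these counts cannot be set against that background. In labelled reads 2 were lower at day 7 against −2, with a median of -1.42.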
